A study of Mus musculus with 12 samples.

Results

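Brown adipose tissue of control mice was compared 3 h after an injection of the β3-adrenergic agonist CL316243 or of saline. The comparison rests on 6 of the 12 arrays of the study, 3 control mice after CL316243 and 3 control mice after saline, chosen by genotype and injection and by no measured value. RNA of interscapular brown fat was measured on 1 exon array per mouse, in a study that set mice lacking Cpt2 in adipocytes against controls with floxed alleles. All 12 mice were C57BL/6 females aged 12 weeks that had spent 2 weeks at 30 °C, a temperature at which a mouse needs little heat from brown fat. The controls were Cpt2f/f mice without Cre, labelled wild-type, so both groups compared here carry the floxed alleles. They received saline or 10 mg/kg CL316243 intraperitoneally. The other 6 mice, adiponectin-Cre; Cpt2f/f, carry Cre under a promoter active in adipocytes of every fat depot, and they enter the results only where the control response is set against theirs. The labels call the 3 mice of a group biological replicates and give no batch.

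In brown adipocytes, noradrenaline from sympathetic nerves acts on β3-adrenergic receptors, which raise cAMP and activate protein kinase A. The kinase sets off the breakdown of stored triglyceride, whose fatty acids fuel mitochondria and open the uncoupling protein Ucp1, so that fuel is burned to heat. Through CREB and p38 MAP kinase the same signal switches on genes, among them Ppargc1a, the coactivator that drives the expression of thermogenic and mitochondrial genes, and Dio2, the deiodinase that makes active thyroid hormone in the tissue. CL316243 is a selective agonist of this receptor and imitates the nerve signal.

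Of 15896 genes tested, 4735 changed (29.8%), 1743 upward (11.0%) and 2992 downward (18.8%). A gene is said to rise or fall where the moderated test of limma, with Benjamini-Hochberg adjustment across the 15896 genes, gave an adjusted p under 0.05. Values are log2 signals, 1 unit being a 2-fold difference, and each log2 difference is CL316243 minus saline with its standard error. Most changes were small, with a median size of 0.49 log2 units among the genes called. At least 2-fold were 291 rises (1.83%) and 167 falls (1.05%). The rises reached further, up to 4.17 log2 units, against 3.19 for the largest fall. For 6517 genes (41.0%) the 3 arrays after CL316243 lay on one side of all 3 arrays after saline, which held for 4614 of the 4735 genes called. The excess of falls follows the scaling of the arrays: the median difference of all genes was -0.071 as deposited, 0.046 after the arrays were centred on their medians and -0.005 after quantile normalization. The share of calls that were rises was 36.8%, 62.2% and 49.9% in turn. Small differences below are therefore relative to a shift of that size. Of the 458 changes of at least 2-fold, 411 passed under every other fit that tested them, those without any 1 array included. With the filter at the 50th percentile 284 such rises and 150 such falls remained, and genes left out by that filter are not counted as lost.

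**Figure D1:**
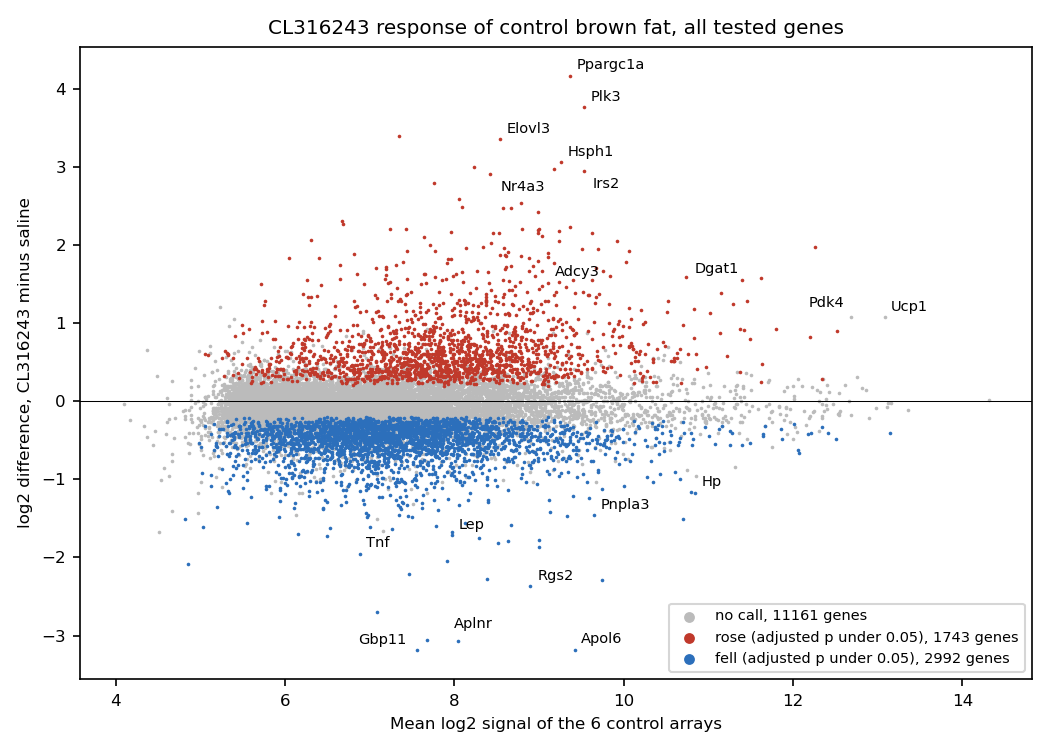
Each point is 1 of 15896 tested genes, with the mean log2 signal of the 6 control arrays across and the log2 difference CL316243 minus saline up. Red marks the 1743 genes that rose, blue the 2992 that fell and grey those without a call. The rises reach 4.17 and the falls -3.19.

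The tissue label was not checked by signal level, since signals of different array rows cannot be ranked against each other. Of the brown adipocyte genes Ucp1, Cidea, Cox8b, Prdm16, Ebf2 and Zic1 and the adipocyte genes Adipoq and Fabp4, all 8 passed the filter on low signals. These 8 come from longer marker lists. The filter also passed 15896 of the 20259 genes and all 16 skeletal muscle markers with a row, so passing it does not identify the tissue. Across genes, pairs of saline arrays correlated at 0.938 to 0.976 (Pearson r), pairs of CL316243 arrays at 0.966 to 0.981, and mixed pairs at 0.911 to 0.941. Skeletal muscle genes varied between dissections. The mean over 16 muscle genes, each centred on its mean of the 6 arrays, was 0.11, -1.51 and 2.23 after saline and -1.19, 0.71 and -0.34 after CL316243, so the groups overlap, and 1 of the 16 fell and none rose in the limma fit (1 below and 0 above 0 at an unadjusted p under 0.05). The median of the muscle genes was -0.51, and 0.58 without saline array 3. The gene that fell, Myl1, a myosin light chain, differed by -1.58 ± 0.47 (adjusted p = 0.0266), a call lost without saline array 3 (0.0914), without CL316243 array 1 (0.0928) and without CL316243 array 3 (0.0727), adjusted p in brackets. With a muscle score from these same genes as a covariate 4920 genes were called, 1 muscle gene among the rises and 1 among the falls.

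Ppargc1a had the largest rise of all genes. Its log2 signal was 7.32, 7.45 and 7.07 after saline and 11.57, 11.53 and 11.27 after CL316243. Every treated mouse stood far above every saline mouse, an 18.0-fold difference (4.17 ± 0.24, adjusted p = 2.52e-06). Plk3, a polo-like kinase induced by growth factors and stress, came next, at 7.87, 7.53 and 7.56 after saline and 11.48, 11.47 and 11.32 after CL316243 (3.77 ± 0.20, adjusted p = 1.77e-06). No treated mouse was near a saline mouse.

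The sequences just before the starts of such genes were read because cAMP acts on transcription mainly through CREB, which binds the cAMP response element TGACGTCA or the shorter site TGACG. Promoters are those of RefSeq on GRCm38.p6, from 250 bases before a gene's start to 50 after it, and 12177 tested genes had 15268 of them. The full element, on either strand, lay in 2.57% of all promoters, in 5.61% of the 303 promoters of genes that rose at least 2-fold and in 2.65% of the 151 promoters of genes that fell as far. The shorter site, which the full element contains, lay in 27.6%, 37.0% and 21.9%. These shares describe the letters of the windows and no binding was measured. Below are the 160 bases before the start, 5′ to 3′ along the gene, for 6 genes that rose with a full element and for Ppargc1a with the shorter site. Capitals mark the element (for Ppargc1a the shorter site as read on the opposite strand, CGTCA).
Ppargc1a: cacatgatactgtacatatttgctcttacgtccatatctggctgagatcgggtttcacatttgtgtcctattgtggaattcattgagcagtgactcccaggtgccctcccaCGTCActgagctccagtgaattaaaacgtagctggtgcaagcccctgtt
Dio2: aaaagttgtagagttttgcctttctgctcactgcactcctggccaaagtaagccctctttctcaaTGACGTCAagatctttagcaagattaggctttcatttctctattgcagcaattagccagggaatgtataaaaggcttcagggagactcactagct
Ppp1r15a: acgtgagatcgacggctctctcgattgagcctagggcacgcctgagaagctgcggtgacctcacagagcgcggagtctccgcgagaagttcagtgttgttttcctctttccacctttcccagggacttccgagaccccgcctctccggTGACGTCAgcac
Dusp8: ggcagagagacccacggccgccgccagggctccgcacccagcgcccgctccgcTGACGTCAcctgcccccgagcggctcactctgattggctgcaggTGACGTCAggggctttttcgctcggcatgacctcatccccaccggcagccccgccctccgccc
Maff: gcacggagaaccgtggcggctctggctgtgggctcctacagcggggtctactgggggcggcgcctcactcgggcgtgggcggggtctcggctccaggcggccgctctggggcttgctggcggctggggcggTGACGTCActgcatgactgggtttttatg
Slc25a25: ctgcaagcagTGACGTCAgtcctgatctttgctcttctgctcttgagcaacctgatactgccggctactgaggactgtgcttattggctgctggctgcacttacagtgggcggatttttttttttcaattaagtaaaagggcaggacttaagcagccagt
Tubb2a: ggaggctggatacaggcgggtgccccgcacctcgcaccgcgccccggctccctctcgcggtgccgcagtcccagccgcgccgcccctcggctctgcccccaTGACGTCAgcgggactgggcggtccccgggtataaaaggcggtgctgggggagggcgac
The stretches lie at chr5:51567726-51567885, minus strand (Ppargc1a), chr12:90739039-90739198, minus strand (Dio2), chr7:45526269-45526428, minus strand (Ppp1r15a), chr7:142095285-142095444, minus strand (Dusp8), chr15:79347360-79347519, plus strand (Maff), chr2:32424067-32424226, minus strand (Slc25a25) and chr13:34078009-34078168, minus strand (Tubb2a). The first base of the element is 95 bases before the start in Dio2, 12 in Ppp1r15a, 29 in Maff, 59 in Tubb2a and 150 in Slc25a25, and Dusp8 has a pair, at 107 and 63. In Ppargc1a the shorter site begins at 49. The differences of these genes ran from 1.15 for Maff, a small Maf transcription factor, to 2.18 for the tubulin gene Tubb2a and 4.17 for Ppargc1a. Slc25a25, which encodes a mitochondrial ATP-Mg/phosphate carrier, differed by 1.82 ± 0.19 (adjusted p = 7.9e-05).

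Among the genes that carry the adrenergic signal, 2 adenylyl cyclases, which make cAMP, rose. Adcy3, a cyclase known from olfactory neurons and from fat, had signals of 8.38, 8.47 and 8.19 after saline and 9.79, 9.91 and 9.92 after CL316243. The groups stood well apart (1.52 ± 0.095, adjusted p = 4.79e-06), and Adcy4 also rose (0.88 ± 0.082, adjusted p = 3.8e-05). Of 23 tested cyclases and cAMP phosphodiesterases 7 rose and 2 fell, with a median of 0.22 against -0.071 for all genes. In that list 4 rose in the control arrays alone or without saline array 1 or 3, while 0 fell after median centring, after quantile normalization or without saline array 2 and 1 fell in the control arrays alone, with the stricter filter or without saline array 3 or CL316243 array 1 or 3. Here and below, counts under other fits are given where they moved by over 1.5 times, except for the replicate block and for fits without a knockout array. Phosphodiesterases, which break cAMP down, were on both sides. Pde4d, a cAMP-specific form, was at 6.33, 6.26 and 6.38 after saline and 7.52, 7.51 and 7.36 after CL316243 (1.14 ± 0.12, adjusted p = 8.99e-05), and its difference was 0.42 with the mean of its array rows. Pde10a rose as well (0.58 ± 0.094, adjusted p = 0.0011), and Pde1a, a calmodulin-dependent form, fell (-0.42 ± 0.11, adjusted p = 0.0136), a call lost after median centring (0.0877), after quantile normalization (0.0564) and without saline array 2 (0.0556). Other cyclases such as Adcy5 (0.24 ± 0.18, adjusted p = 0.372) and Adcy6 (-0.02 ± 0.16, adjusted p = 0.945) had no call.

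Protein kinase A and its partners held more rises than falls. Of 29 tested genes of the kinase, its anchors, the salt-inducible kinases and the CREB coactivators 13 rose and 4 fell, with a median of 0.22. Here 2 fell after median centring, in the control arrays alone or without saline array 1. The salt-inducible kinases, which hold CREB's coactivators in the cytoplasm until protein kinase A inhibits them, rose in all 3 members. Sik1, itself a CREB target, was at 8.12, 7.75 and 8.04 after saline and 10.27, 10.17 and 9.84 after CL316243 (2.12 ± 0.23, adjusted p = 9.5e-05). Sik3 rose by 1.01 ± 0.092 (adjusted p = 3.3e-05) and Sik2 by 0.97 ± 0.12 (adjusted p = 0.000262), and in none of the 3 genes did the groups overlap. The kinase anchors Akap12, a scaffold that binds β-adrenergic receptors, and Akap2 rose further. Akap12 was at 7.93, 7.64 and 8.18 after saline and 10.19, 10.01 and 10.00 after CL316243 (2.15 ± 0.14, adjusted p = 4.79e-06), and Akap2 at 7.80, 7.53 and 7.74 after saline and 10.16, 10.08 and 9.45 after CL316243 (2.21 ± 0.22, adjusted p = 5.66e-05). Both separated the groups by more than 1 log2 unit. The regulatory subunit gene Prkar1a rose (0.55 ± 0.085, adjusted p = 0.000852), as did Crem, a CREB relative whose short form ends cAMP responses (0.5 ± 0.11, adjusted p = 0.00548), while the anchor gene Akap5 fell (-0.63 ± 0.14, adjusted p = 0.00559).

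At the receptor step the share of calls was near the 29.8% of all genes. Of 12 tested receptors, G proteins and desensitizing kinases and arrestins 2 rose and 1 fell, with a median of 0.08: the receptor kinase gene Grk3 (0.63 ± 0.17, adjusted p = 0.0188), the subunit gene Gnb1 (0.52 ± 0.13, adjusted p = 0.0112) and the arrestin gene Arrb2 (-0.42 ± 0.12, adjusted p = 0.0207). None of these 3 calls held under every fit: 0 rose in the control arrays alone, 1 rose without saline array 1 or 3 or CL316243 array 2 and 4 rose after median centring or without CL316243 array 3, while 0 fell after median centring or without saline array 2 or CL316243 array 1 or 3. The β1 and β3 receptor genes themselves, Adrb1 and Adrb3, were not analysed here. Gpr3, a receptor that signals to cAMP without a ligand and is induced by cold in brown fat, was at 6.86, 6.83 and 6.61 after saline and 6.86, 6.86 and 7.04 after CL316243 and had no call (0.15 ± 0.11, adjusted p = 0.362), the lowest treated mice being level with the highest saline mouse.

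Regulators of G-protein signalling, which switch G proteins off, held 1 rise and 4 falls in 15 tested genes, a share of calls near the 29.8% of all genes. Rgs2, a regulator of Gq and of cyclases that other cells induce by cAMP, fell here. Its signals were 9.62, 10.39 and 10.23 after saline and 8.17, 7.84 and 7.09 after CL316243, with all treated mice below all saline mice (-2.37 ± 0.32, adjusted p = 0.000371). Rgs4 went the other way, at 6.5, 6.74 and 6.45 after saline and 8.02, 7.81 and 7.69 after CL316243 (1.28 ± 0.17, adjusted p = 0.00032). Rgs3 fell by less (-0.66 ± 0.14, adjusted p = 0.00507). The falls of Rgs18 and Rgs19 were lost under both other scalings. In the list 2 rose after quantile normalization or without saline array 2 or CL316243 array 1 and 3 rose after median centring, while 2 fell after median centring, after quantile normalization, without the filter or without saline array 3 or CL316243 array 1.

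Of 33 tested early transcription factors 15 rose and 1 fell, with a median of 0.51, beside 11.0% and 18.8% of all genes (0 fell after median centring, after quantile normalization or without saline array 1 or 2 or CL316243 array 1). The Nr4a nuclear receptors are classic first responders to cAMP. Nr4a3 had signals of 6.79, 7.10 and 7.03 after saline and 9.72, 9.83 and 10.08 after CL316243 (2.91 ± 0.36, adjusted p = 0.000221). Nr4a2 stood at 8.16, 7.71 and 7.53 after saline and 9.48, 9.26 and 9.31 after CL316243 (1.55 ± 0.21, adjusted p = 0.000414). In both, the lowest treated mouse exceeded the highest saline mouse by more than 1 log2 unit. Nr4a1 was at 7.86, 8.21 and 7.94 after saline and 8.82, 8.97 and 8.93 after CL316243, apart in all mice but without a call (0.90 ± 0.40, adjusted p = 0.118) in the fit of all 12 arrays. In the fit of the 6 control arrays its adjusted p was 0.00375.

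Atf3, a stress- and cAMP-induced repressor, was at 7.77, 7.53 and 8.37 after saline and 10.14, 10.07 and 10.08 after CL316243 (2.21 ± 0.18, adjusted p = 1.96e-05). Cebpb, which with Prdm16 programs brown adipocytes and which CREB induces, was at 8.31, 7.95 and 8.27 after saline and 10.08, 9.95 and 10.05 after CL316243 (1.85 ± 0.15, adjusted p = 1.81e-05). Nfil3, a leucine-zipper repressor of clock-controlled genes, was at 7.69, 7.58 and 7.76 after saline and 9.33, 9.44 and 9.83 after CL316243 (1.86 ± 0.15, adjusted p = 1.95e-05). In all 3 genes the groups stood apart by more than 1 log2 unit, and for Atf3 and Cebpb the treated mice lay closer together than the saline mice. Fos, the best-known immediate early gene, was at 7.52, 6.93 and 7.93 after saline and 8.41, 8.04 and 7.64 after CL316243 and overlapped between the groups (0.57 ± 0.46, adjusted p = 0.408). Also without a call were Egr1 (0.48 ± 0.24, adjusted p = 0.171), Junb (0.39 ± 0.19, adjusted p = 0.148) and Myc (0.08 ± 0.17, adjusted p = 0.792), while Fosl2, a Fos relative, rose (0.92 ± 0.16, adjusted p = 0.00173).

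**Figure D2:**
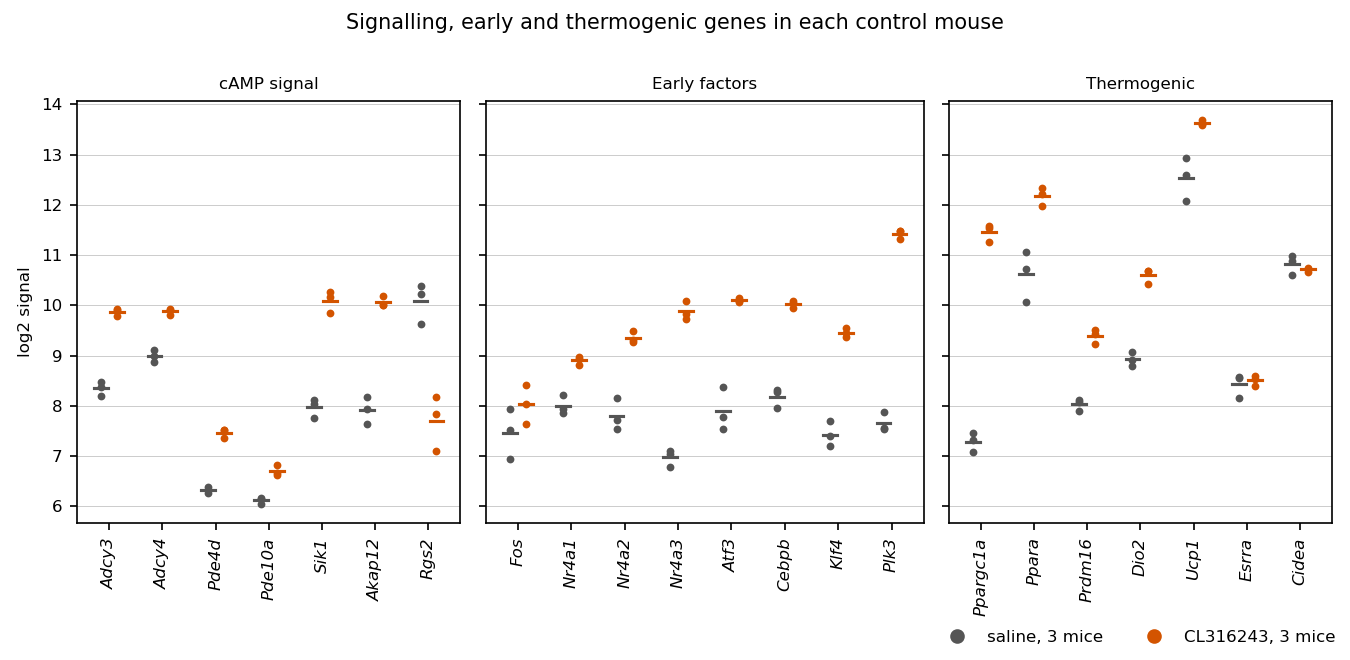
Log2 signal of each control mouse (points; grey after saline, orange after CL316243, 3 mice each) with group means as bars, for signalling genes, early transcription factors with the kinase gene Plk3, and thermogenic genes. Ppargc1a moves from 7.07 to 7.45 up to 11.27 to 11.57, Rgs2 is the signalling gene that falls, and Fos, Esrra and Cidea overlap between the groups.

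Kruppel-like factors showed 5 rises and no fall in the limma fit among 13 tested (1 below 0 at an unadjusted p under 0.05; 1 fell with the stricter filter or without saline array 3 and 2 fell without CL316243 array 3). Klf4, at 7.39, 7.19 and 7.69 after saline and 9.45, 9.55 and 9.36 after CL316243, had the largest (2.03 ± 0.16, adjusted p = 1.33e-05), followed by Klf7 (0.89 ± 0.10, adjusted p = 0.000165). Of 18 tested feedback genes of MAP kinase signalling 10 rose and 1 fell (3 without CL316243 array 3), with a median of 0.67. The dual-specificity phosphatases, which switch MAP kinases off, led them. Dusp10, which acts on p38 and JNK, was at 7.20, 6.85 and 7.27 after saline and 8.66, 8.74 and 8.63 after CL316243 (1.57 ± 0.20, adjusted p = 0.000242). Dusp7, which acts on ERK, was at 9.31, 9.21 and 9.13 after saline and 10.51, 10.50 and 10.34 after CL316243 (1.24 ± 0.082, adjusted p = 5.67e-06). Dusp8, with its pair of response elements shown above, was at 8.16, 7.67 and 8.35 after saline and 9.21, 9.42 and 9.30 after CL316243 (1.25 ± 0.18, adjusted p = 0.000564). All treated mice were above all saline mice for these 3 phosphatases and for Dusp16 (1.16 ± 0.11, adjusted p = 4.89e-05) and Spry4, an inhibitor of receptor tyrosine kinase signalling (1.13 ± 0.15, adjusted p = 0.000412).

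Growth-arrest genes included some of the largest rises. Gadd45g, a small stress protein that activates p38 upstream and is induced by cold in brown fat, was at 8.27, 7.29 and 7.53 after saline and 10.62, 10.60 and 10.77 after CL316243 (2.97 ± 0.31, adjusted p = 8.96e-05). Cdkn1a, the cyclin-dependent kinase inhibitor p21, was at 8.80, 8.52 and 8.43 after saline and 10.06, 9.98 and 10.12 after CL316243 (1.47 ± 0.19, adjusted p = 0.000302). Treated mice were close together in both genes and far above saline mice. In the list of 19 such genes 5 rose and 3 fell, beside 11.0% and 18.8% of all genes, with a median of 0.11. After median centring 1 fell. Cell cycle genes held 6 falls and no rise in the limma fit among 22 tested (0 above 0 at an unadjusted p under 0.05) and a median of -0.23. Ccnd1, cyclin D1, was at 8.09, 8.19 and 8.02 after saline and 7.17, 7.11 and 7.55 after CL316243 (-0.82 ± 0.16, adjusted p = 0.00357), and the replication helicase gene Mcm4 fell by 0.65 (adjusted p = 0.00087). For cell cycle genes 2 fell after median centring or without CL316243 array 2 and 3 fell after quantile normalization or without saline array 3 or CL316243 array 1.

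Of the PGC-1 coactivators, Ppargc1a had a partner in Pprc1, the PGC-1-related coactivator of early growth responses, at 7.53, 7.20 and 7.64 after saline and 8.47, 8.27 and 8.10 after CL316243 (0.82 ± 0.12, adjusted p = 0.000617). Ppargc1b, the third member, was at 10.44, 10.27 and 9.49 after saline and 10.41, 10.71 and 10.75 after CL316243, overlapping and without a call (0.56 ± 0.30, adjusted p = 0.194). The nuclear receptors that the coactivators work with split. Ppara, the receptor for fatty acids that directs their oxidation, was at 10.73, 11.06 and 10.06 after saline and 12.33, 12.22 and 11.98 after CL316243 (1.56 ± 0.31, adjusted p = 0.00357), with a gap between the groups. Esrra, the estrogen-related receptor of mitochondrial genes, was at 8.55, 8.57 and 8.16 after saline and 8.40, 8.54 and 8.59 after CL316243 (0.08 ± 0.11, adjusted p = 0.636), with overlap. Esrrg was apart but missed the threshold (0.46 ± 0.17, adjusted p = 0.0561). The nuclear receptor coactivator gene Ncoa1 rose (0.86 ± 0.12, adjusted p = 0.000443) and the mitochondrial deacetylase gene Sirt3, itself a PGC-1α target, fell (-0.59 ± 0.10, adjusted p = 0.00194). Of 26 tested genes of this kind 7 rose and 4 fell, beside 11.0% and 18.8% of all genes. Only 1 fell after median centring or without saline array 2.

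Thermogenic and brown identity genes did not move as one. Of 23 tested identity genes 8 rose and 2 fell, beside 11.0% and 18.8% of all genes, with a median of 0.21. In this list 0 fell after median centring, in the control arrays alone or without saline array 1 or 2 or CL316243 array 2 or 3 and 1 fell after quantile normalization, with the stricter filter, with the mean of rows or without CL316243 array 1. Prdm16, the transcription factor that fixes brown over muscle fate, was at 7.90, 8.11 and 8.07 after saline and 9.43, 9.23 and 9.51 after CL316243 (1.36 ± 0.11, adjusted p = 2.11e-05). Elovl3, an elongase of saturated fatty acids that cold induces strongly in brown fat, was at 7.30, 6.74 and 6.54 after saline and 9.81, 10.14 and 10.70 after CL316243 (3.36 ± 0.24, adjusted p = 9.74e-06). Kcnk3, a potassium channel of brown adipocytes, was at 9.67, 10.01 and 9.65 after saline and 10.39, 10.45 and 10.49 after CL316243 (0.67 ± 0.14, adjusted p = 0.0051). Each of the 3 genes separated the groups in all mice. Cidea was at 10.98, 10.89 and 10.61 after saline and 10.75, 10.73 and 10.67 after CL316243 (-0.11 ± 0.26, adjusted p = 0.805) and Ebf2, an early factor of the brown lineage, at 7.91, 7.83 and 7.65 after saline and 7.97, 8.11 and 7.94 after CL316243 (0.21 ± 0.089, adjusted p = 0.0985). Neither had a call, nor did Cox8b (-0.12 ± 0.38, adjusted p = 0.861).

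Ucp1 was at 12.60, 12.94 and 12.07 after saline and 13.59, 13.68 and 13.60 after CL316243. All treated mice were above all saline mice, and the treated mice lay close together, but the difference had no call (1.08 ± 0.76, adjusted p = 0.331). The fit takes its spread from all 12 arrays. With the 6 control arrays alone the adjusted p was 0.0121, without knockout saline array 1 it was 0.0307, and over all alternatives it ran from 0.0121 to 0.541. Dio2, shown above with its response element, was at 8.91, 9.06 and 8.80 after saline and 10.42, 10.69 and 10.68 after CL316243, again with a clear gap (1.67 ± 0.48, adjusted p = 0.0223). The call of Dio2 was lost without saline array 1 (0.0573), without saline array 3 (0.056), without CL316243 array 2 (0.0628) and without CL316243 array 3 (0.0559), adjusted p in brackets, and in the control arrays alone its adjusted p was 0.000373.

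A list of uncoupling proteins, creatine cycling and calcium cycling held 6 rises and 1 fall in 18 tested, beside 11.0% and 18.8% of all genes. The deiodinase gene Dio2 and the channel gene Kcnk3 were among the rises. The rise of Ucp3, another uncoupling protein gene, lost its call after quantile normalization (0.0557), without the filter (0.0507) and without saline array 3 (0.137), among other fits, adjusted p in brackets. In this list 0 fell after median centring, after quantile normalization or without saline array 1 or 2 or CL316243 array 2 or 3 and 2 fell with the muscle covariate, in the control arrays alone or without saline array 3. Alpl, the phosphatase of the creatine cycle, was at 7.09, 6.92 and 7.24 after saline and 7.77, 7.92 and 7.81 after CL316243 (0.75 ± 0.16, adjusted p = 0.00485). The calcium pump gene Atp2a2 rose by 0.5 ± 0.10 (adjusted p = 0.00413), a call lost with the mean of its rows. Neither Ckb, the creatine kinase, at 8.09, 8.34 and 8.13 after saline and 8.04, 7.83 and 8.18 after CL316243 (-0.17 ± 0.097, adjusted p = 0.213), nor the creatine transporter gene Slc6a8 (-0.06 ± 0.11, adjusted p = 0.741) had a call, and both overlapped between the groups. Aifm2, an oxidoreductase of lipid droplets that supplies glycolysis with NAD in brown fat, rose (0.70 ± 0.18, adjusted p = 0.0123).

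Lipid genes are described by function, from the droplet to the synthesis of fatty acids and sterols. Of the lipases and droplet proteins 7 of 19 rose and 1 fell, beside 11.0% and 18.8% of all genes, with a median of 0.06. Hilpda, an inhibitor of the lipase Atgl that is also induced by hypoxia and by fatty acids, was at 7.49, 7.16 and 7.46 after saline and 9.66, 9.37 and 9.55 after CL316243 (2.16 ± 0.14, adjusted p = 4.86e-06). Plin2, a droplet coat protein induced by fatty acids through PPARs, was at 9.27, 9.01 and 8.83 after saline and 10.58, 10.68 and 10.65 after CL316243 (1.6 ± 0.12, adjusted p = 1.19e-05). Both separated all mice by more than 1 log2 unit. Abhd5, the activator of Atgl, was at 8.09, 8.06 and 8.06 after saline and 8.93, 8.88 and 8.99 after CL316243 (0.86 ± 0.076, adjusted p = 2.88e-05). Pnpla2, which encodes Atgl, was at 11.37, 11.35 and 11.17 after saline and 10.93, 11.15 and 11.0 after CL316243 and had no call (-0.27 ± 0.12, adjusted p = 0.112), and with the mean of its rows the difference was 0.15. G0s2, the other inhibitor of Atgl, was at 9.28, 8.67 and 8.14 after saline and 7.67, 8.92 and 8.68 after CL316243, with overlap (-0.27 ± 0.32, adjusted p = 0.59). The hormone-sensitive lipase gene Lipe was not analysed here. In this list 0 fell after median centring or in the control arrays alone and 2 fell without saline array 3.

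Uptake of lipid from blood held 3 rises and 3 falls in 19 tested genes, a share of calls near the 29.8% of all genes. The median was -0.05, which is 0.06 after median centring. Mfsd2a, a transporter of lysophospholipids carrying docosahexaenoic acid that fasting and cold induce, was at 6.32, 6.27 and 6.48 after saline and 9.32, 9.01 and 9.12 after CL316243 (2.79 ± 0.22, adjusted p = 1.42e-05), one of the largest rises of all. Lipg, endothelial lipase, was at 6.95, 6.78 and 6.77 after saline and 8.49, 8.54 and 8.35 after CL316243 (1.63 ± 0.18, adjusted p = 9.95e-05). The fatty acid transporter gene Cd36 rose by less (0.67 ± 0.13, adjusted p = 0.00316). Both the lipoprotein lipase gene Lpl, at 10.47, 10.57 and 10.37 after saline and 10.59, 10.73 and 10.76 after CL316243 (0.22 ± 0.099, adjusted p = 0.12), and Angptl4, an inhibitor of that lipase, at 10.56, 10.53 and 11.05 after saline and 10.61, 10.63 and 10.52 after CL316243 (-0.13 ± 0.33, adjusted p = 0.817), had no call. The falls, of Fabp5, Slc27a4 and Vldlr, were -0.55 at most; 0 fell after median centring and 1 fell without the filter or without saline array 1 or 2 or CL316243 array 1, 2 or 3.

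Peroxisomes shorten very long fatty acids, and 10 of their 23 tested genes rose and 3 fell, with a median of 0.18. No setting moved either count by over 1.5 times. The peroxisomal thioesterase gene Acot4, whose product frees acids from dicarboxylyl-CoA, was at 6.95, 6.85 and 6.48 after saline and 9.10, 9.38 and 9.56 after CL316243 (2.59 ± 0.17, adjusted p = 5.63e-06). Acot3 (1.89 ± 0.15, adjusted p = 1.49e-05) and Acot5 (1.84 ± 0.30, adjusted p = 0.00119) also rose, and as these genes lie in a cluster of close copies, the array may not tell their transcripts apart. The saline signals of Acot5, 5.5, 5.38 and 5.56, lay within the filter level, which ran from 5.269 to 5.579 between arrays. The size of its rise is therefore uncertain. Ehhadh, the bifunctional enzyme of peroxisomal β-oxidation and a PPARα target, was at 7.08, 7.14 and 6.71 after saline and 8.28, 8.67 and 8.76 after CL316243 (1.59 ± 0.18, adjusted p = 0.000115). Of the genes of peroxisomal import, the receptor gene Pex5 was at 8.37, 8.34 and 8.12 after saline and 9.91, 9.58 and 9.67 after CL316243 (1.44 ± 0.12, adjusted p = 1.81e-05) and the docking gene Pex13 at 7.87, 7.99 and 7.65 after saline and 9.15, 9.15 and 8.81 after CL316243 (1.20 ± 0.14, adjusted p = 0.000172). Crot, the octanoyltransferase that exports shortened acids (-0.62 ± 0.14, adjusted p = 0.00795), and the oxidase gene Acox3 (-0.60 ± 0.094, adjusted p = 0.000897) fell.

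In mitochondrial β-oxidation the share of calls, too, was near the 29.8% of all genes. Of 18 tested genes of the carnitine shuttle and the β-oxidation spiral 2 rose and 2 fell, with a median of 0.01 that is -0.02 after quantile normalization (4 rose after median centring or in the control arrays alone, while 1 fell after median centring, in the control arrays alone or without saline array 1 or 2 or CL316243 array 1 or 3). Cpt1a, the gate of the pathway, was at 7.21, 7.23 and 7.03 after saline and 7.15, 7.26 and 7.29 after CL316243 (0.07 ± 0.087, adjusted p = 0.588), and Cpt2, which is floxed but intact in these mice, at 8.83, 8.99 and 8.75 after saline and 8.60, 8.83 and 8.52 after CL316243 (-0.20 ± 0.096, adjusted p = 0.136). Both overlapped between the groups. The rises were in Etfdh, which passes electrons from the spiral to ubiquinone, at 9.12, 9.34 and 8.96 after saline and 10.25, 10.22 and 10.00 after CL316243 (1.02 ± 0.19, adjusted p = 0.00264), and in the carnitine transporter gene Slc22a5 (1.0 ± 0.22, adjusted p = 0.00577). The falls were in the hydratase gene Echs1 (-0.65 ± 0.13, adjusted p = 0.0034) and the medium-chain dehydrogenase gene Acadm (-0.34 ± 0.11, adjusted p = 0.032), whose call was lost after median centring (0.152), in the control arrays alone (0.087), without saline array 1 (0.115), without saline array 2 (0.112), without CL316243 array 1 (0.0899), without CL316243 array 2 (0.0552) and without CL316243 array 3 (0.0593). Acot2, the mitochondrial thioesterase, rose like its peroxisomal relatives, at 10.14, 9.76 and 9.93 after saline and 10.96, 11.27 and 11.02 after CL316243 (1.14 ± 0.13, adjusted p = 0.000127). It stands in a list of 18 tested elongases, desaturases and thioesterases of which 3 rose and 2 fell, near the 29.8% of all genes. In that list 5 rose after median centring or after quantile normalization. There 0 fell without saline array 1 and 4 fell without saline array 2. After median centring or without CL316243 array 1, 2 or 3, 1 fell. Elovl5, an elongase of polyunsaturated acids, was the other rise beside Elovl3 (0.62 ± 0.14, adjusted p = 0.00581).

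Triglyceride assembly genes moved both ways. Of 20 tested genes 6 rose and 3 fell, beside 11.0% and 18.8% of all genes, with a median of 0.20. The acyltransferase that commits glycerol phosphate to lipid is encoded by several genes, of which Gpat3 was at 7.15, 7.25 and 7.08 after saline and 9.03, 9.02 and 9.30 after CL316243 (1.96 ± 0.14, adjusted p = 1.19e-05). The last step can be made by Dgat1, which prefers recycled fatty acids, or by Dgat2, which is tied to newly made ones. Dgat1 was at 10.21, 10.13 and 9.49 after saline and 11.44, 11.68 and 11.49 after CL316243 (1.59 ± 0.17, adjusted p = 0.000111) and Dgat2 at 10.88, 10.96 and 10.27 after saline and 9.83, 10.09 and 9.92 after CL316243 (-0.76 ± 0.21, adjusted p = 0.0203). All treated mice lay above the saline mice for Dgat1 and below them for Dgat2. The fall of Dgat2 lost its call without saline array 1 (0.0721), without saline array 2 (0.0793) and without CL316243 array 1 (0.0644), adjusted p in brackets. Pck1, the carboxykinase that makes glycerol phosphate in fat and a CREB target in liver, was at 10.97, 10.93 and 10.56 after saline and 12.14, 12.07 and 12.08 after CL316243 (1.28 ± 0.23, adjusted p = 0.00228). In the assembly list 3 rose without CL316243 array 2, while 1 fell without saline array 1 or 2 or CL316243 array 1.

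De novo fatty acid synthesis held no rise and 9 falls in the limma fit of 17 tested genes (0 above 0 at an unadjusted p under 0.05), with a median of -0.76. Pnpla3, a lipase relative driven by SREBP-1c and ChREBP, was at 10.74, 10.59 and 9.80 after saline and 9.09, 9.07 and 8.60 after CL316243 (-1.46 ± 0.27, adjusted p = 0.00234). Mlxipl, which encodes ChREBP, the glucose-sensing regulator of lipogenesis, was at 10.54, 10.41 and 10.08 after saline and 9.43, 9.69 and 9.51 after CL316243 (-0.80 ± 0.13, adjusted p = 0.00138). Both falls held in every fit. Acaca, acetyl-CoA carboxylase, was at 12.01, 11.38 and 10.99 after saline and 9.98, 10.70 and 9.18 after CL316243 (-1.51 ± 0.40, adjusted p = 0.0158), a call lost without saline array 1 (0.0647) and without CL316243 array 3 (0.0548). Srebf1, the gene of SREBP-1, was at 9.56, 9.35 and 8.97 after saline and 8.35, 8.64 and 8.46 after CL316243 (-0.81 ± 0.21, adjusted p = 0.0158), a call lost without saline array 1 (0.064) and without CL316243 array 1 (0.0537). Fasn, fatty acid synthase, was at 12.30, 11.52 and 11.38 after saline and 10.88, 11.32 and 10.50 after CL316243 and missed the threshold (-0.84 ± 0.29, adjusted p = 0.0513). Saline array 1 was the highest in Acaca, Srebf1 and Fasn, and in the list 4 fell without saline array 1 and 5 fell without saline array 2 or CL316243 array 3.

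Desaturases differed among themselves. Scd1 was at 11.49, 11.29 and 11.17 after saline and 11.45, 11.59 and 11.42 after CL316243 (0.17 ± 0.10, adjusted p = 0.25), with overlap, and Scd2 at 10.52, 10.02 and 9.51 after saline and 8.99, 8.84 and 8.57 after CL316243 (-1.21 ± 0.31, adjusted p = 0.0122), a call lost without saline array 1 (0.0503). Sterol synthesis held 11 falls and 1 rise in 18 tested genes, with a median of -0.44 and 7 falls after median centring. Idi1, the isomerase of isoprenoid units, was at 8.78, 8.54 and 8.19 after saline and 7.70, 7.31 and 6.33 after CL316243 (-1.39 ± 0.30, adjusted p = 0.00516). Msmo1, a sterol demethylation enzyme, was at 7.40, 7.36 and 7.36 after saline and 6.72, 6.44 and 6.44 after CL316243 (-0.84 ± 0.12, adjusted p = 0.000735). Hmgcs1, the cytosolic synthase at the head of the pathway, went the other way, at 10.18, 10.48 and 10.06 after saline and 11.41, 11.50 and 11.33 after CL316243 (1.18 ± 0.23, adjusted p = 0.00319). All treated mice were above the saline mice for Hmgcs1 and below them for Idi1 and Msmo1.

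**Figure D3:**
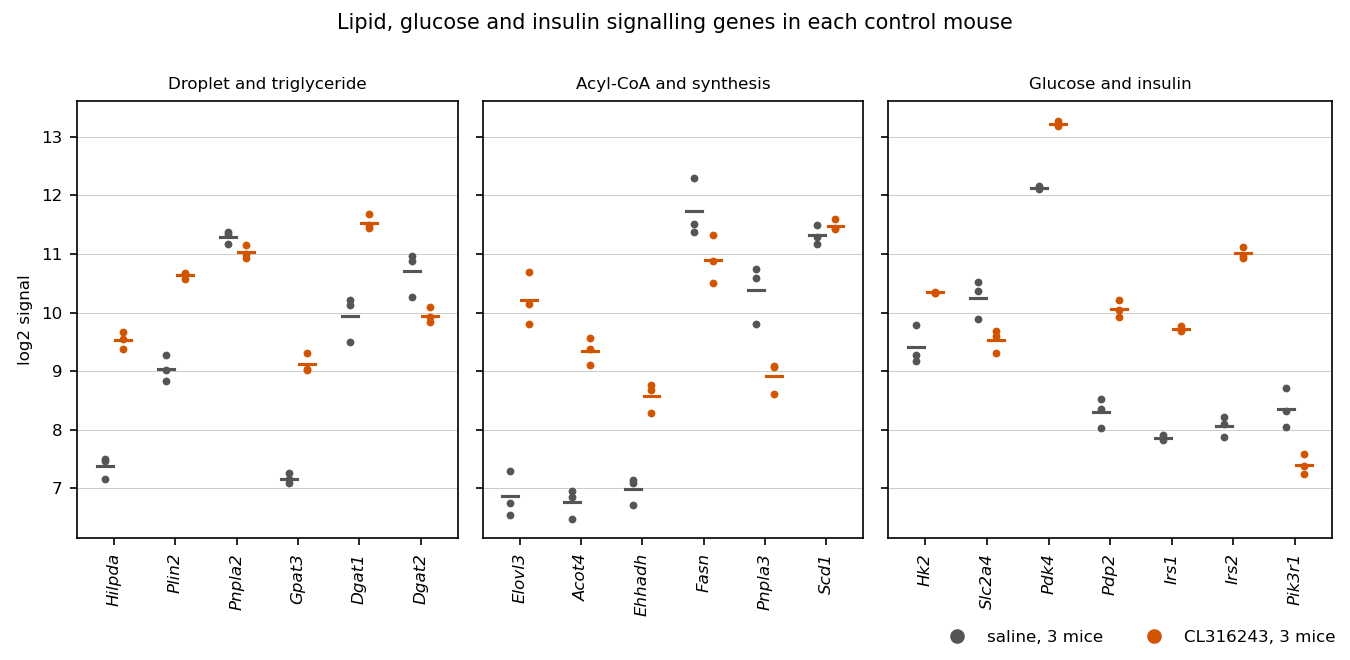
Log2 signal of each control mouse (points; grey after saline, orange after CL316243, 3 mice each) with group means as bars, for lipid droplet and triglyceride genes, acyl-CoA and fatty acid synthesis genes, and genes of glucose use and insulin signalling. Dgat1 rises and Dgat2 falls, Irs1 and Irs2 rise and Pik3r1 falls, and Scd1 overlaps between the groups.

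Glucose use held 5 rises and 3 falls in 32 tested genes of uptake, glycolysis and glycogen, with a median of -0.18, beside 29.8% called among all genes. Pfkp, the platelet form of phosphofructokinase, was at 7.95, 7.96 and 7.82 after saline and 9.38, 9.29 and 9.04 after CL316243 (1.33 ± 0.090, adjusted p = 6.43e-06). Hk2, the insulin-regulated hexokinase, was at 9.79, 9.28 and 9.18 after saline and 10.34, 10.34 and 10.35 after CL316243 (0.93 ± 0.14, adjusted p = 0.000789). In both, no mouse of one group reached the other group. Slc2a1, the basal glucose transporter, rose (0.76 ± 0.14, adjusted p = 0.002), and Slc16a1, a carrier of lactate and pyruvate, rose by 0.98 ± 0.16 (adjusted p = 0.00118). The insulin-responsive transporter gene Slc2a4 fell, at 10.52, 10.36 and 9.89 after saline and 9.60, 9.68 and 9.30 after CL316243 (-0.73 ± 0.20, adjusted p = 0.0172), a call lost after median centring (0.0514), without saline array 1 (0.0689), without saline array 2 (0.0582) and without CL316243 array 3 (0.0583). Here 1 fell after median centring or without saline array 1 or 2 or CL316243 array 3 and 6 fell without saline array 3.

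Pyruvate dehydrogenase joins glycolysis to the citric acid cycle, and kinases and phosphatases set its activity. Pdp2, a phosphatase that activates the complex, was at 8.35, 8.52 and 8.02 after saline and 9.92, 10.05 and 10.22 after CL316243 (1.77 ± 0.16, adjusted p = 3.07e-05). Pdk4, a kinase that shuts it and that PPARs induce, was at 12.11, 12.16 and 12.13 after saline and 13.18, 13.27 and 13.21 after CL316243, with all mice apart and little spread within groups. Its difference had no call in the fit of 12 arrays (1.08 ± 0.41, adjusted p = 0.0689), and its adjusted p was 0.000551 in the 6 control arrays. Of the 13 tested genes of the complex and its regulators 1 rose, Pdp2, and 1 fell, the other phosphatase gene Pdp1 (-0.39 ± 0.11, adjusted p = 0.0189), a call lost after median centring (0.0815), after quantile normalization (0.0678), in the control arrays alone (0.0619), without saline array 1 (0.0593), without saline array 3 (0.0666) and without CL316243 array 2 (0.0694). In that list 2 rose with the muscle covariate or in the control arrays alone, while 0 fell after median centring, after quantile normalization or without saline array 1 or CL316243 array 2 and 2 fell with the stricter filter or with the muscle covariate.

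Insulin signalling genes changed in both directions, 6 up and 7 down in 28 tested, and 11 of these 13 calls held in every fit. Irs2, the receptor substrate that CREB induces in liver, was at 8.10, 7.87 and 8.21 after saline and 10.97, 10.94 and 11.12 after CL316243 (2.95 ± 0.27, adjusted p = 3.12e-05). Irs1 was at 7.82, 7.91 and 7.85 after saline and 9.71, 9.77 and 9.69 after CL316243 (1.86 ± 0.23, adjusted p = 0.000229). The treated mice were close together and far above the saline mice for both substrates. Insr, the receptor, was at 7.75, 7.94 and 7.78 after saline and 8.46, 8.64 and 8.48 after CL316243 (0.70 ± 0.11, adjusted p = 0.00102), and the transcription factor gene Foxo1, which insulin restrains, at 7.71, 7.43 and 7.25 after saline and 8.81, 8.70 and 8.79 after CL316243 (1.30 ± 0.13, adjusted p = 5.69e-05). Lower in all treated mice were Pik3r1, the regulatory subunit of the kinase that the substrates recruit, at 8.71, 8.32 and 8.05 after saline and 7.37, 7.59 and 7.24 after CL316243 (-0.96 ± 0.15, adjusted p = 0.0011), the adaptor gene Grb14, an inhibitor of the receptor, at 8.43, 8.06 and 8.22 after saline and 7.54, 7.36 and 7.0 after CL316243 (-0.93 ± 0.17, adjusted p = 0.00246), and the rodent substrate gene Irs3 (-0.91 ± 0.18, adjusted p = 0.00384).

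Of 43 tested respiratory chain subunits, beside 29.8% called among all genes, none rose in the limma fit (1 above 0 at an unadjusted p under 0.05) and 2 fell, Ndufv2 (-0.5 ± 0.12, adjusted p = 0.0101) and Ndufa2 (-0.37 ± 0.12, adjusted p = 0.034), both without a call after median centring. The subunits' differences ran from -0.50 to 0.31 with a median of -0.02, which is 0.10 after median centring. For the subunits 1 rose after quantile normalization, with the stricter filter, with trended moderation or without CL316243 array 3 and 3 rose after median centring, while 0 fell after median centring, 1 fell in the control arrays alone or without saline array 1 or 2 or CL316243 array 1 or 3 and 4 fell without saline array 3. The citric acid cycle held 1 rise, Mdh2 (0.39 ± 0.11, adjusted p = 0.018), lost without saline array 3 (0.0604) and without CL316243 array 2 (0.0563). For the 17 tested cycle genes 0 rose without saline array 3 or CL316243 array 2, 2 rose with the stricter filter, with the mean of rows or without CL316243 array 1 and 3 rose after median centring. Its 1 fall was Idh2, the NADP-dependent isocitrate dehydrogenase, at 9.89, 10.07 and 10.08 after saline and 9.26, 9.20 and 9.30 after CL316243 (-0.76 ± 0.10, adjusted p = 0.000433). Tfb1m, a methyltransferase of mitochondrial ribosomal RNA and a PGC-1α target, fell (-0.45 ± 0.10, adjusted p = 0.00683), as did the mitophagy receptor gene Bnip3l (-0.48 ± 0.094, adjusted p = 0.0031), and Tomm70a, an import receptor, rose (0.53 ± 0.11, adjusted p = 0.00343). In their list of mitochondrial biogenesis, dynamics and import 4 rose and 4 fell in 25 tested, a share near that of all genes, and 1 rose without saline array 3 or CL316243 array 1 and 2 rose in the control arrays alone or without saline array 2 or CL316243 array 2.

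Breakdown of branched-chain amino acids, a fuel of active brown fat, held 8 falls and 2 rises in 20 tested genes, with a median of -0.24, counts that no setting moved by over 1.5 times. Ivd, the dehydrogenase of the leucine route, was at 8.80, 9.15 and 8.75 after saline and 8.0, 8.07 and 8.06 after CL316243 (-0.86 ± 0.12, adjusted p = 0.000449), and Hibch, of the valine route, at 9.35, 9.53 and 9.06 after saline and 8.54, 8.69 and 8.38 after CL316243 (-0.78 ± 0.14, adjusted p = 0.00197). Dbt, the core of the branched-chain dehydrogenase, was at 8.61, 8.74 and 8.45 after saline and 9.11, 9.24 and 9.07 after CL316243 (0.54 ± 0.11, adjusted p = 0.0036). The treated mice were below the saline mice for the first 2 enzymes and above them for Dbt.

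Heat shock genes rose nearly throughout. Of 21 tested members of their list 17 rose and none fell in the limma fit (0 below 0 at an unadjusted p under 0.05), with a median of 0.85. Between 15 and 18 rose whichever of the control arrays was left out. Hsph1, the Hsp110 co-chaperone that recharges Hsp70, was at 7.61, 7.80 and 7.78 after saline and 10.94, 10.94 and 10.49 after CL316243 (3.06 ± 0.16, adjusted p = 1.6e-06). Hspa1a, an inducible Hsp70 with a near-identical neighbour that the array may not tell apart, was at 6.27, 6.43 and 7.49 after saline and 9.90, 10.28 and 9.0 after CL316243 (3.00 ± 0.46, adjusted p = 0.000808). Dnajb1, an Hsp40, was at 8.48, 8.52 and 8.65 after saline and 10.57, 10.78 and 10.75 after CL316243 (2.15 ± 0.14, adjusted p = 6.2e-06). Every treated mouse was above every saline mouse, by more than 1 log2 unit in these 3 genes. Bag3, which couples Hsp70 to autophagy, was at 8.98, 8.91 and 9.51 after saline and 11.01, 10.90 and 10.86 after CL316243 (1.79 ± 0.15, adjusted p = 1.81e-05), and Hsp90aa1, the inducible Hsp90, at 10.77, 10.67 and 11.05 after saline and 12.48, 12.52 and 12.24 after CL316243 (1.58 ± 0.14, adjusted p = 2.45e-05). Without a call were Cryab (-0.43 ± 0.34, adjusted p = 0.398), Hspb8 (0.70 ± 0.32, adjusted p = 0.122), Hsf2 (-0.10 ± 0.12, adjusted p = 0.605) and Fkbp4 (0.21 ± 0.081, adjusted p = 0.074).

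Heat shock factors bind inverted GAA triplets, so the pair GAANNTTC was searched on both strands of the same windows. It lay in 5.94% of all promoters, in 6.60% of those of genes that rose at least 2-fold and in 6.62% of those of genes that fell as far. Among heat shock genes that rose it lay in 8 of 20 promoters (40.0%), those of 7 of 14 genes. These genes were listed for being heat shock genes, and the share among members that did not rise was not taken. A relation of the motif to the response was not tested. The 160 bases before the start are given for a pair of them, with the motif in capitals.
Hspa1a: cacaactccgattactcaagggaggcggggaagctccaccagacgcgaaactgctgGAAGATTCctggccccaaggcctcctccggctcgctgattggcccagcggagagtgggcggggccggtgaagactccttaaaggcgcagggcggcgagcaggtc
Dnaja1: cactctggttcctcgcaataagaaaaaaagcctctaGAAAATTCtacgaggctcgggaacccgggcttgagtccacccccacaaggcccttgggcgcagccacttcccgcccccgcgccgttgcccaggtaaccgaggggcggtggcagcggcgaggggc
They lie at chr17:34972157-34972316, minus strand (Hspa1a) and chr4:40722308-40722467, plus strand (Dnaja1), and the motif starts 104 bases before the start of Hspa1a and 124 before that of Dnaja1, another Hsp40. Dnaja1 was at 10.41, 10.68 and 10.26 after saline and 11.99, 12.07 and 11.45 after CL316243 (1.39 ± 0.19, adjusted p = 0.000399), with no overlap.

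Of 20 tested genes of endoplasmic reticulum stress 7 rose and none fell in the limma fit, beside 11.0% and 18.8% of all genes. Their median was 0.19, 0 lay below 0 at an unadjusted p under 0.05, and 11 rose without CL316243 array 3. Dnajb9, a co-chaperone of the organelle, was at 8.17, 8.17 and 7.90 after saline and 9.37, 9.21 and 9.37 after CL316243 (1.23 ± 0.15, adjusted p = 0.000232), and Hspa5, its main Hsp70, at 9.75, 9.79 and 9.59 after saline and 10.58, 10.48 and 10.31 after CL316243 (0.75 ± 0.090, adjusted p = 0.000193). The integrated stress response held 6 rises and 2 falls in 21 tested genes (1 fell after median centring, after quantile normalization, in the control arrays alone or without saline array 2). Atf4, its central transcription factor, was at 8.87, 8.49 and 8.76 after saline and 9.72, 9.72 and 9.77 after CL316243 (1.03 ± 0.11, adjusted p = 8.22e-05), and Slc3a2, the heavy chain of amino acid transporters, at 7.48, 7.40 and 7.30 after saline and 8.62, 8.56 and 8.60 after CL316243 (1.20 ± 0.075, adjusted p = 4.79e-06). Ppp1r15a, the phosphatase subunit that ends the response, was at 6.78, 6.31 and 6.60 after saline and 8.26, 7.78 and 7.78 after CL316243 (1.38 ± 0.23, adjusted p = 0.00118). The groups did not overlap in any of these 5 genes. Ddit3, which encodes CHOP, fell (-0.67 ± 0.13, adjusted p = 0.00267).

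Antioxidant genes held 1 rise and 4 falls in 18 tested, a share of calls near the 29.8% of all genes. In their list 0 rose without saline array 1 or CL316243 array 1 or 2 and 2 rose after median centring, after quantile normalization, with the stricter filter or with the muscle covariate. Gpx3, a secreted glutathione peroxidase, was at 10.82, 11.26 and 11.10 after saline and 9.95, 10.32 and 10.23 after CL316243 (-0.90 ± 0.20, adjusted p = 0.00562), and Keap1, the sensor that restrains Nrf2, at 7.87, 7.87 and 7.73 after saline and 7.27, 7.26 and 7.26 after CL316243 (-0.56 ± 0.068, adjusted p = 0.000216). Hmox1, heme oxygenase, was apart at 10.01, 10.20 and 10.34 after saline and 10.83, 10.75 and 10.75 after CL316243 but missed the threshold (0.59 ± 0.21, adjusted p = 0.056), and the metallothionein gene Mt2 overlapped (0.21 ± 0.21, adjusted p = 0.521). Proteasome subunits held 2 rises and 2 falls in 28 tested, beside 29.8% called among all genes, with differences from -0.26 to 0.41. Of these subunits 4 rose without CL316243 array 3, and 1 fell with the mean of rows or without saline array 3. None fell after median centring, without the filter, with the muscle covariate or in the control arrays alone. Nor did any fall without saline array 1 or 2 or CL316243 array 2 or 3. Of 22 autophagy and lysosome genes 5 rose and 2 fell, a share of calls near the 29.8% of all genes. Both falls were lost after median centring. The largest rise was in the adaptor gene Sqstm1, at 9.32, 9.13 and 9.51 after saline and 10.27, 10.15 and 10.10 after CL316243 (0.86 ± 0.10, adjusted p = 0.000199).

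Of 17 tested clock genes 3 rose and 4 fell, beside 11.0% and 18.8% of all genes. Arntl, which encodes the clock activator BMAL1, was at 6.04, 6.25 and 6.38 after saline and 8.0, 7.89 and 7.90 after CL316243 (1.71 ± 0.13, adjusted p = 1.27e-05). Per1, a clock repressor with cAMP response elements known in its promoter, was at 9.33, 9.01 and 8.96 after saline and 9.77, 9.82 and 9.81 after CL316243 (0.70 ± 0.15, adjusted p = 0.0053), and Cry1 at 7.47, 7.36 and 7.22 after saline and 8.27, 7.98 and 7.96 after CL316243 (0.72 ± 0.11, adjusted p = 0.000783). Per3 fell, at 8.21, 8.23 and 7.80 after saline and 6.87, 7.16 and 6.99 after CL316243 (-1.07 ± 0.16, adjusted p = 0.000735), together with the output factor gene Tef (-0.72 ± 0.13, adjusted p = 0.00182). No mouse crossed between groups in these 5 genes. The labels give no time of day, so a difference in dissection time between the groups was not tested.

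Secreted factors of fat held 2 rises and 8 falls in 27 tested, beside 11.0% and 18.8% of all genes, with a median of -0.12. Fgf21, a hormone of fasting and cold, was at 6.11, 6.10 and 6.30 after saline and 7.54, 7.35 and 7.47 after CL316243 (1.28 ± 0.11, adjusted p = 2e-05). Lep, leptin, was at 8.90, 8.79 and 8.81 after saline and 7.15, 7.42 and 6.80 after CL316243 (-1.71 ± 0.18, adjusted p = 8.27e-05), and C1qtnf9, an adiponectin relative, at 9.55, 9.90 and 9.12 after saline and 7.21, 7.01 and 7.52 after CL316243 (-2.27 ± 0.23, adjusted p = 6.17e-05). These 3 genes separated all mice by more than 1 log2 unit. Vegfa, an angiogenic factor, was at 10.36, 10.34 and 10.15 after saline and 10.34, 10.35 and 10.34 after CL316243 and did not pass (0.06 ± 0.16, adjusted p = 0.814), and neither did Bmp8b (-0.02 ± 0.11, adjusted p = 0.918) nor Nrg4 (0.35 ± 0.14, adjusted p = 0.0897). For secreted factors 4 rose after median centring, while 3 fell after median centring, 4 fell in the control arrays alone or without CL316243 array 1 and 5 fell without CL316243 array 2.

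White adipocyte markers fell in 5 of 12 tested genes and rose in none in the limma fit (1 above 0 at an unadjusted p under 0.05), with 3 falls and 1 rise after median centring. Hoxc6, a homeobox gene of subcutaneous and posterior fat, was at 7.58, 7.63 and 7.54 after saline and 6.34, 6.34 and 6.15 after CL316243 (-1.31 ± 0.10, adjusted p = 1.78e-05), and Hoxc8 fell too (-0.76 ± 0.18, adjusted p = 0.00969). Adipoq, adiponectin, was at 11.74, 12.11 and 11.74 after saline and 11.32, 11.54 and 11.45 after CL316243 (-0.42 ± 0.11, adjusted p = 0.0127), and lost its call after median centring (0.0641) and in the control arrays alone (0.0583). Of 9 general adipocyte genes 2 rose and 1 fell, a share of calls near the 29.8% of all genes, with a median of 0.22. Neither Pparg (0.31 ± 0.11, adjusted p = 0.0567) nor Fabp4 (0.18 ± 0.16, adjusted p = 0.446) had a call. In that list 1 rose in the control arrays alone or without saline array 3 or CL316243 array 2. After quantile normalization or with the stricter filter 4 rose, and 5 rose after median centring. There 0 fell after median centring or in the control arrays alone. In bulk tissue fewer cells of a type and less RNA per cell cannot be told apart, here and for each cell type below.

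Endothelial genes rose and fell. In 32 tested 13 rose and 6 fell, with a median of 0.13, and 3 fell after median centring, in the control arrays alone or without saline array 2 or CL316243 array 2. Aplnr, the receptor of apelin, fell furthest of them, at 9.50, 9.92 and 9.30 after saline and 6.68, 6.33 and 6.51 after CL316243 (-3.07 ± 0.20, adjusted p = 4.79e-06). Among the rises, Flt1, a VEGF receptor, was at 8.23, 8.36 and 8.22 after saline and 9.26, 9.27 and 8.98 after CL316243 (0.90 ± 0.12, adjusted p = 0.000458), and Cldn5, a tight junction protein of vessels, at 6.76, 6.67 and 6.77 after saline and 8.07, 8.04 and 7.93 after CL316243 (1.28 ± 0.26, adjusted p = 0.0038). All treated mice were apart from all saline mice in these genes. Sox17, an arterial transcription factor, was at 7.18, 7.23 and 7.14 after saline and 8.76, 8.74 and 8.84 after CL316243 (1.6 ± 0.12, adjusted p = 1.33e-05), but its difference was 0.33 without a call when its rows were averaged. Defining markers of the cell type rose by little: Cdh5 by 0.51 ± 0.073 (adjusted p = 0.000578), Kdr by 0.52 ± 0.11 (adjusted p = 0.00494) and Pecam1 by 0.38 ± 0.067 (adjusted p = 0.00173).

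Matrix genes held 9 rises and no fall in the limma fit of 35 tested (0 below 0 at an unadjusted p under 0.05, and 1 fell in the control arrays alone), with a median of 0.06. Collagens of fibroblasts such as Col1a1 (0.01 ± 0.19, adjusted p = 0.966) and Col3a1 (-0.01 ± 0.23, adjusted p = 0.985) had no call. Col4a1, a basement membrane collagen chain, was at 8.96, 8.87 and 9.22 after saline and 10.45, 10.36 and 10.36 after CL316243 (1.37 ± 0.12, adjusted p = 3.12e-05), and Col4a2, its partner chain, at 8.68, 8.73 and 9.0 after saline and 9.89, 9.80 and 9.80 after CL316243 (1.02 ± 0.12, adjusted p = 0.000171). The protease gene Adamts9 was at 7.37, 7.36 and 7.57 after saline and 10.15, 10.02 and 9.53 after CL316243 (2.47 ± 0.16, adjusted p = 5.67e-06). Treated mice were above saline mice throughout. Prg4, lubricin, was at 6.94, 7.30 and 7.37 after saline and 8.84, 8.76 and 8.88 after CL316243 (1.63 ± 0.14, adjusted p = 2.14e-05).

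Among immune genes the largest falls were in genes that interferon-γ is known to induce. Of 8 tested guanylate-binding proteins and related GTPases, which attack intracellular microbes, 7 fell and none rose in the limma fit (0 above 0 at an unadjusted p under 0.05), with a median of -1.81. Gbp2 was at 10.75, 11.49 and 10.43 after saline and 8.78, 8.30 and 8.72 after CL316243 (-2.29 ± 0.23, adjusted p = 6.33e-05). Gbp11 was at 9.22, 10.68 and 7.54 after saline and 6.07, 5.51 and 6.28 after CL316243 (-3.19 ± 0.60, adjusted p = 0.00251), and Gbp7 at 9.70, 10.68 and 9.40 after saline and 8.17, 7.93 and 8.10 after CL316243 (-1.86 ± 0.28, adjusted p = 0.000701). Saline mouse 2 was the highest in all 3 genes, and each treated mouse was below each saline mouse. Close copies exist in this family, so the array may not tell some members apart. The mean centred signal of the 8 genes was 0.83, 1.93 and 0.10 after saline and -0.90, -1.16 and -0.80 after CL316243, and without saline array 2 the median was -1.28.

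Interferon-stimulated and antigen presentation genes fell in 15 of 28 tested and rose in none in the limma fit (0 above 0 at an unadjusted p under 0.05), all 28 having a difference below 0 and a median of -0.73 (-0.59 without saline array 2). Ifit3, an antiviral protein, was at 9.88, 10.26 and 9.52 after saline and 8.61, 7.75 and 7.96 after CL316243 (-1.78 ± 0.38, adjusted p = 0.00484). Tap1, the peptide transporter of antigen presentation, was at 8.25, 9.12 and 7.82 after saline and 7.13, 7.18 and 7.08 after CL316243 (-1.26 ± 0.26, adjusted p = 0.00429), and Irf1, the transcription factor of interferon-γ signalling, at 7.79, 8.17 and 7.39 after saline and 6.91, 6.90 and 6.96 after CL316243 (-0.85 ± 0.16, adjusted p = 0.0023). Again no treated mouse reached a saline mouse. The apolipoprotein L gene Apol6, with one of the largest falls, was at 11.03, 11.38 and 10.63 after saline and 7.78, 8.33 and 7.39 after CL316243 (-3.18 ± 0.24, adjusted p = 1.19e-05). Tnfsf10, the death ligand TRAIL that interferons induce, was at 8.51, 8.98 and 7.83 after saline and 5.75, 5.70 and 5.76 after CL316243 (-2.70 ± 0.22, adjusted p = 1.81e-05), with -1.31 as the mean of its rows.

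Cytokine genes held 7 falls and 3 rises in 30 tested, near the 18.8% and 11.0% of all genes, with a median of -0.19. Tnf was at 7.67, 7.87 and 8.02 after saline and 5.99, 5.55 and 6.16 after CL316243 (-1.95 ± 0.26, adjusted p = 0.000353), and the chemokine gene Ccl3 at 8.47, 8.14 and 8.63 after saline and 7.28, 7.39 and 7.23 after CL316243 (-1.11 ± 0.23, adjusted p = 0.00459). Hp, haptoglobin, an acute phase protein that adipocytes make, was at 11.45, 11.42 and 11.42 after saline and 10.07, 10.33 and 10.37 after CL316243 (-1.17 ± 0.11, adjusted p = 3.46e-05). These falls held in every fit. Those of Il1b (-1.6 ± 0.52, adjusted p = 0.0375) and Ccl2 (-1.24 ± 0.41, adjusted p = 0.0431) were lost after median centring, without any 1 of the saline arrays or of CL316243 arrays 2 and 3, and without knockout CL316243 array 3. That of Il1b was also lost without CL316243 array 1, and that of Ccl2 without the filter and with robust moderation. In the cytokine list 1 rose without saline array 1 or 2 or CL316243 array 2.

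Markers of immune cells were measured beside these falls. Of 16 lymphocyte and natural killer markers 3 fell and none rose in the limma fit (0 above 0 at an unadjusted p under 0.05), with a median of -0.55 that was -0.21 without saline array 2. The share of these markers that fell was near the 18.8% of all genes. Their mean centred signal was 0.12, 0.90 and -0.14 after saline and -0.32, -0.37 and -0.18 after CL316243, so saline mouse 2 was again the highest. Ncr1, a receptor of natural killer cells, was at 5.96, 6.93 and 5.73 after saline and 4.80, 5.14 and 4.99 after CL316243 (-1.23 ± 0.25, adjusted p = 0.0042). The filter level ran from 5.269 to 5.579 between arrays, so of the control arrays only those after saline passed it. With the treated values that low, the size of this fall is uncertain. The defining T cell gene Cd4 was at 6.17, 7.09 and 5.81 after saline and 5.93, 5.82 and 5.90 after CL316243 (-0.48 ± 0.34, adjusted p = 0.343). Of 18 macrophage markers 3 fell and 1 rose (3 without saline array 2), beside 18.8% and 11.0% of all genes. Their mean centred signals were 0.01, 0.32 and -0.12 after saline and -0.08, -0.04 and -0.10 after CL316243. The monocyte receptor gene Ccr2 was at 7.45, 7.44 and 7.60 after saline and 6.46, 6.44 and 6.40 after CL316243 (-1.06 ± 0.18, adjusted p = 0.00155), while Cd68 (0.21 ± 0.12, adjusted p = 0.228), C1qa (-0.20 ± 0.13, adjusted p = 0.292) and Mrc1 (0.43 ± 0.19, adjusted p = 0.126) had no call. Csf1r, another macrophage marker, fell, a call lost after median centring (-0.34, adjusted p = 0.103) and after quantile normalization (-0.41, adjusted p = 0.0546). The call was also lost without saline array 2 (0.108) and without CL316243 array 1 (0.0749), 2 (0.0597) or 3 (0.0573), adjusted p in brackets. The part of these cells in the falls of interferon and cytokine genes was not tested. Glandular epithelial markers had no call from limma in 15 tested (0 above and 0 below 0 at an unadjusted p under 0.05), nor had red blood cell markers in 3 (0 and 0, and 1 rose under each other scaling). Schwann cell and nerve markers held 1 rise in 11 and no fall (1 at an unadjusted p under 0.05), and 0 rose in the control arrays alone or without saline array 1, 2 or 3 or CL316243 array 2 or 3, while 1 fell without saline array 3.

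**Figure D4:**
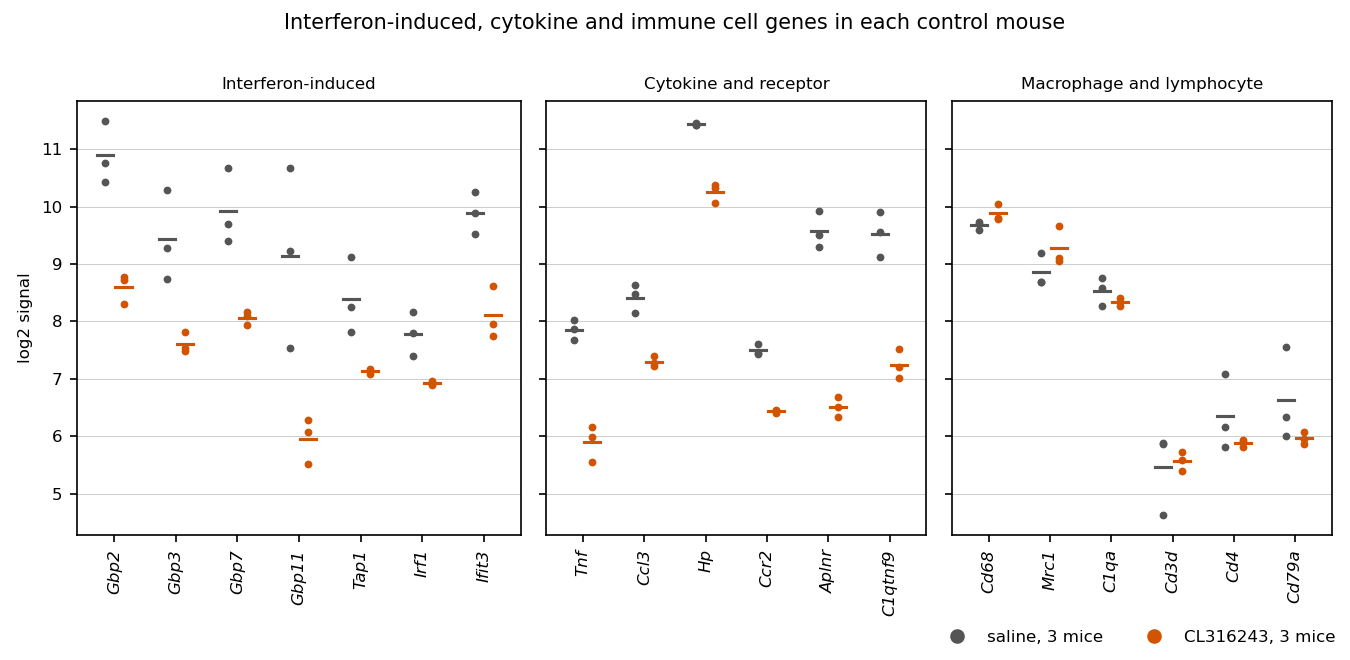
Log2 signal of each control mouse (points; grey after saline, orange after CL316243, 3 mice each) with group means as bars, for interferon-induced genes, cytokine and receptor genes, and macrophage and lymphocyte markers. The guanylate-binding protein genes are lower in all treated mice and spread most among saline mice, and Cd68, Mrc1 and C1qa have no call.

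Other named changes lie outside these groups. The transcript 3930402G23Rik, without a role in the tables used here, was at 5.90, 5.47 and 5.56 after saline and 8.82, 9.31 and 9.0 after CL316243 (3.40 ± 0.19, adjusted p = 2.32e-06). Its saline signals of 5.47 and 5.56 lay within the filter level of 5.269 to 5.579, so the size of this rise is uncertain. Dagla, a lipase that makes the endocannabinoid 2-arachidonoylglycerol, was at 8.39, 8.34 and 8.03 after saline and 10.34, 10.59 and 10.52 after CL316243 (2.23 ± 0.11, adjusted p = 1.6e-06). Chka, choline kinase, was at 6.27, 6.38 and 6.31 after saline and 8.80, 8.36 and 8.44 after CL316243 (2.21 ± 0.18, adjusted p = 1.81e-05). In each of these the gap between the groups was over 1 log2 unit. Tmem82, a membrane protein gene, had the lowest adjusted p of all, at 6.58, 6.5 and 6.41 after saline and 8.26, 8.26 and 8.32 after CL316243 (1.78 ± 0.076, adjusted p = 1.29e-06). Cars2, a mitochondrial cysteinyl-tRNA synthetase, was at 7.0, 7.09 and 6.96 after saline and 8.70, 8.78 and 9.02 after CL316243 (1.82 ± 0.091, adjusted p = 1.6e-06), and Piezo1, a stretch-activated channel, at 8.82, 8.84 and 8.89 after saline and 10.42, 10.33 and 10.46 after CL316243 (1.55 ± 0.073, adjusted p = 1.6e-06). Spread within groups was small in all 3 genes. Meox2, a homeobox factor of vessels, was at 8.78, 9.24 and 8.80 after saline and 6.90, 6.60 and 7.18 after CL316243 (-2.05 ± 0.17, adjusted p = 2e-05).

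**Figure D5:**
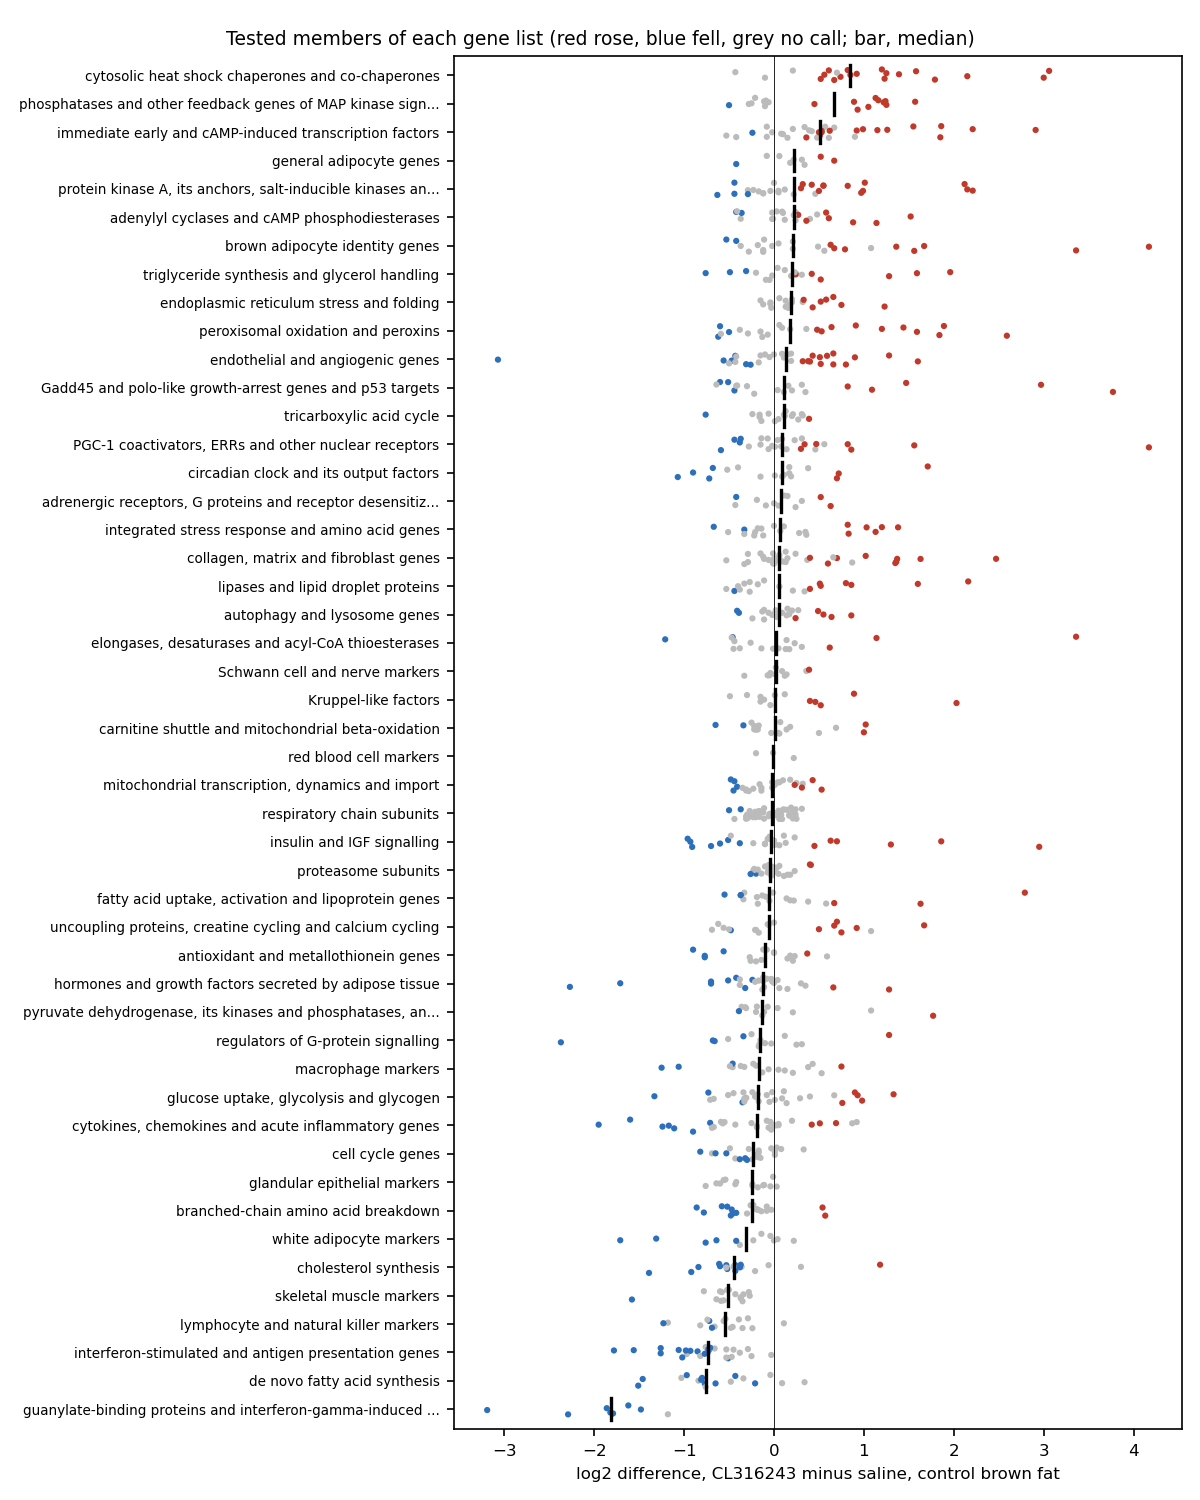
Each row is 1 of 48 gene lists, ordered by median, and each point is a tested member's log2 difference, CL316243 minus saline, in control brown fat (red rose, blue fell, grey no call); the black bar is the list's median. Heat shock chaperones have the highest median, 0.85, and guanylate-binding proteins the lowest, -1.81, while respiratory chain subunits sit around 0.

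The response of control mice was set against that of knockout mice by the difference of both effects, which passed the test for 324 genes (2.04%), and for 128 to 399 genes with 1 array left out. Of the 458 genes that changed at least 2-fold in controls, 111 had such a difference, 98 of them rises and 13 falls. These 458 genes were chosen by their change in the control arrays, which the difference also uses, so the counts are a description. In all but 1 of the 98 rises the effect was smaller in knockouts. The exception, Prg4, differed by 1.63 ± 0.14 in controls and by 3.37 in knockouts (1.75 ± 0.19, adjusted p = 0.00209 for the difference). Dusp7 rose in controls (1.24 ± 0.082) and was at -0.27 in knockouts (-1.5 ± 0.12, adjusted p = 0.000183 for the difference). Prdm16 stood at 1.36 ± 0.11 against -0.58 (-1.95 ± 0.16, adjusted p = 0.000226), Pdp2 at 1.77 ± 0.16 against -0.69 (-2.45 ± 0.22, adjusted p = 0.000533), and Ehhadh at 1.59 ± 0.18 against -0.61 (-2.20 ± 0.25, adjusted p = 0.00228). These 4 genes rose in controls and lay below 0 in knockouts. For Ppargc1a the effect was 4.17 ± 0.24 and 2.64 (-1.54 ± 0.34, adjusted p = 0.0433). Hilpda was alike in value, 2.16 ± 0.14 and 2.37 (0.21 ± 0.20, adjusted p = 0.67), as was Gpat3, 1.96 ± 0.14 and 1.74 (-0.21 ± 0.20, adjusted p = 0.681), and a p that misses the threshold does not show that the responses are equal.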

How the data were processed

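RNA of 12 mice was hybridised to exon arrays, 1 per mouse. The deposited values are log2 signals per array row, summarised with RMA, and Partek and the build mm9 are named in the submitters' processing notes without versions. Rows got symbols from the platform's annotation: of 115830 rows, 27839 were listed, 25539 with 1 gene and 2300 with several, which were left out. The remaining 87991 rows were unnamed here. Of a gene's rows the one with the highest mean over the 12 arrays was kept, which gave 20259 genes, and 15896 passed the filter on low signals (above the 25th percentile of an array in at least 3 arrays). RMA pulls small differences together at low signal and cannot show absolute RNA amounts, and the number of arrays, not depth, limits precision.

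limma 3.58.1 in R 4.3.3 was fitted to all 12 arrays with 1 mean per group, since the groups share 1 estimate of spread, with Benjamini-Hochberg adjustment over the tested genes and contrasts for the control effect and for its difference from the knockout effect. Tables and figures were made in Python 3.11.15 with pandas 2.3.3, numpy 2.4.6 and matplotlib 3.10.9. Tested on simulated data of 15896 genes with 200 changed, the control comparison recovered 39%, 86% and 97.5% of changes of 0.5, 1 and 2 log2 units, and the difference 6%, 66.5% and 95%. False calls numbered 2, 11 and 9 for the control comparison and 2, 10 and 11 for the difference. The simulated noise was independent between genes, and far fewer genes changed than the 29.8% called in the data. The adjustment depends on that share, so recovery in the data can differ. A test of 3 against 3 arrays by permutation alone cannot give a two-sided p below 0.1. Replicate numbers are shared between groups, but the deviations of same-numbered arrays correlated at -0.049, -0.241 and 0.018, so the numbers were not taken to pair mice.

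The comparison, the gene lists and the genes to name were chosen with earlier results of these data known. Named were the 20 genes that rose furthest and the 20 that fell furthest among those whose groups did not overlap, up to 6 called members of each of 48 lists with the largest differences, a panel of 85 genes whether called or not, and the 10 lowest adjusted p. Further genes given as examples, such as Fos relatives, promoter examples and cell type markers without a call, were chosen after their values were seen. The lists hold 1092 genes, 975 of them with a row. Alternatives were both scalings, the filter, the rule for rows, the moderation, the replicate block, a muscle covariate, a threshold of 0.01, the 6 control arrays alone and each array left out. Promoters come from RefSeq, GRCm38.p6, matched by gene; the arrays' own coordinates were not used.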

Additional observations from a re-analysis of the deposited data

Results flagged for a closer look

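Of the 279 named genes, 50 had a control response that differed from the knockout response, by limma's test of the difference of both effects with adjustment over all tested genes (2.04% of all). Values are the knockout effect minus the control effect in log2 units, 3 mice in each of 4 groups. A value below 0 can be a smaller rise or a larger fall in knockouts. It can also be a knockout effect below 0 where controls rose, as for Dusp7, Prdm16, Pdp2 and Ehhadh. Most named genes were chosen by their change in controls, which this difference also uses. Among cAMP and kinase signalling genes the value was -1.15 for Adcy3, -1.33 for Grk3, -1.57 for Sik1, -2.41 for Plk3 and -1.5 for Dusp7. For transcription factors and coactivators it was -1.84 for Nr4a2, -1.53 for Atf3, -1.14 for Cebpb, -1.17 for Klf4, -1.54 for Ppargc1a, -1.95 for Prdm16, -0.93 for Foxo1, -0.79 for Rreb1 and -0.84 for Sox17. For channel genes and the elongase gene it was -1.15 for Kcnk3, -0.92 for Kcne4, -1.89 for Elovl3 and -0.74 for Piezo1. Acyl-CoA, peroxisome and lipid genes had -1.12 for Acot2, -1.63 for Acot3, -1.57 for Acot4, -2.20 for Ehhadh, -0.91 for Pex13, -1.57 for Pank1, -0.89 for Gpat4, -0.87 for Lipa, -2.52 for Mfsd2a and -2.07 for Dagla. Genes of glucose use and insulin signalling had -2.45 for Pdp2, -0.76 for Pfkp, -1.67 for Irs1 and -2.35 for Irs2. Chaperone, amino acid transport and autophagy genes had -1.27 for Hsph1, -1.29 for Dnaja1, -1.02 for Dnajb1, -0.96 for Dnajb9, -0.70 for Slc3a2 and -1.11 for Ulk1. Other genes with a value below 0 had -2.28 for 3930402G23Rik, -1.25 for Cars2, -1.18 for Chst11, -1.46 for Tmem82 and -1.15 for Tubb2a. Values above 0 were found in genes that fell in controls, 2.02 for Apol6, 1.5 for Ccl3, 1.83 for Gbp2, 0.96 for Gsr and 1.76 for 5830467E07Rik. They were also found in Mt2 and Prg4, 1.35 for Mt2 and 1.75 for Prg4. No explanation of these differences was tested.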

How the results depend on the processing

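The number of genes called in controls was 4735, ran from 3531 to 4709 with 1 array left out, and was 3298 in the 6 control arrays alone, 4662 with the replicate block and 4920 with the muscle covariate. At an adjusted p under 0.01 it was 2629, 1115 of them higher and 1514 lower, and 52 genes differed from knockouts. After median centring 1457 genes were lower and 95 of these at least 2-fold, against 2992 and 167. The number that differed from knockouts, 324, was 497 with the filter at the 50th percentile, 292 with the replicate block, and between 128 and 399 with 1 array left out. It fell by over 1.5 times without saline array 1 (184), saline array 3 (181) or CL316243 array 2 (128) of the controls, and without saline array 2 (180), saline array 3 (175), CL316243 array 2 (158) or CL316243 array 3 (129) of the knockouts. The cause was not tested, though a fit without an array has fewer samples. Named genes kept direction and side of the threshold in 5740 recomputed values, lost the call in 353, gained it in 38 and reversed a call in 0. Of the 253 named genes with a call, 192 kept it under every other fit in which they were tested. The threshold of 0.01 is not counted there. List medians moved by more than the spread between mice in 84 recomputed values and by less in 972. No precision below the spread of 3 mice a group can be had.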
